A study of Homo sapiens with 4 samples.

Results

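The genes of the red cell membrane and its skeleton were compared between K562 cells given DMSO and K562 cells given SF1-8. The set held 8 genes chosen by symbol, namely GYPB, GYPC, RHAG, SLC4A1, ANK1, EPB42, EPB41 and SPTB, out of 50229 symbols named in the table. Each symbol was found, and where several entries of the table named it, the entry with the highest mean count stood for the gene. All 8 passed the filter on low counts and were tested.

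K562 is a human erythroleukemia line from a chronic myeloid leukemia, and all 4 libraries came from K562 cells overexpressing U2AF1_S34F, a mutant of the splicing factor U2AF1 that is found in myelodysplastic syndrome. The 2 control libraries were made from cells given DMSO, the solvent. The 2 treated libraries were made from cells given 30 µM SF1-8, a small molecule that was selected for binding to the U2AF homology domain of U2AF1. The treatment lasted 48 h, and the question was how SF1-8 changes the RNA of cells that carry the mutant. No library of K562 cells without the mutant or of cells at another dose or time was analysed here, and the sources do not say whether the line is 1 clone or whether the libraries of a group came from separate cultures. The p-values below therefore measure only the spread between these libraries, which may be technical.

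The red cell membrane is a lipid bilayer held to a net of spectrin that lets the cell deform and recover. At the ankyrin sites of the net, ankyrin-1 (ANK1) with protein 4.2 (EPB42) ties beta-spectrin (SPTB) to band 3 (SLC4A1), the chloride-bicarbonate exchanger, and to the Rh complex, of which the Rh-associated glycoprotein (RHAG) is a part. At its junctional sites, protein 4.1 (EPB41) binds spectrin and actin and holds them to glycophorin C (GYPC). Glycophorin B (GYPB) is a surface sialoglycoprotein that carries the S and s blood group antigens. Inherited defects of several of these genes cause spherocytosis or elliptocytosis, and their products are made in the erythroid precursors of the bone marrow.

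The start regions of the genes are shown first because the table's entries for 4 of them begin at start sites of RefSeq (GRCh38.p14). The letters printed thus lie just before the first base of those entries. Where the counted RNA begins was not tested. From the RefSeq table, 9 promoters of 6 of the 8 genes were searched, and the remaining genes were left out of this search. The motif of the GATA factors, AGATAA or TGATAA on either strand, lay within the 250 bases before the start in 4 of these 9 promoters, 1 each of GYPB, RHAG, SPTB and EPB42. Over all 35116 promoters of the table, 14.6% held it in the same stretch. CACCC on either strand, the letters bound by erythroid Kruppel-like factors, lay in 6 of the 9 promoters and 5 of the 6 genes, and in 54.7% of all promoters. The motifs were searched separately and overlaps between them were not removed. The 70 bases before each start, a length chosen after the positions of the matches were seen, are printed on the strand of the gene, 5′ to 3′, with the match to the GATA motif in capitals.
RHAG: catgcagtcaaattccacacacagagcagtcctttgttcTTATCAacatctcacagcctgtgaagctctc
GYPB: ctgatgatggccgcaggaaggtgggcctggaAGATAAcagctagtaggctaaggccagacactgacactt
SPTB: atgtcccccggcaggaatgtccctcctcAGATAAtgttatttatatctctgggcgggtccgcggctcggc
EPB42: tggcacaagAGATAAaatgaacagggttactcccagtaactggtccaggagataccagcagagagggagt
The stretches lie on the minus strand at chr6:49636840-49636909 for RHAG, chr4:144019346-144019415 for GYPB, chr14:64879908-64879977 for SPTB and chr15:43221019-43221088 for EPB42. The first base of the match stood 31 bases before the start in RHAG, 39 in GYPB, 42 in SPTB and 61 in EPB42, and EPB42 had another match 208 bases before its start. RHAG holds the motif on the opposite strand, so that it reads TTATCA as printed, and the other 3 hold AGATAA. By mean FPKM RHAG was the highest of the 8 genes and EPB42 the second lowest, and both held the motif. The 2 promoters of EPB41 held neither motif in these stretches. A match is a description of letters and not of binding.

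Likeness between genes limits what a gene-level value can say. Of the 50-base words of the longest GYPB coding sequence, 26.0% occurred in a transcript of another gene (GENCODE 29, either strand). GYPE, a related glycophorin gene beside it, shared 8.51% of its own words with GYPB. The corresponding share was 0 for GYPC, EPB41, ANK1, SLC4A1 and RHAG. It was 3.6% for SPTB, with the neighbouring PLEKHG3, and 18.8% for EPB42, with AC068724.4, a gene that the same entry names. The table also put GYPB and GYPE in 1 entry, so the value called GYPB below is that of both genes.

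The library totals ranged from 45331271 to 67311734 counts over entries that name a gene, with DMSO 1 the shallowest. The authors deposited an FPKM value, which is scaled for length and depth and allows levels of different genes to be set side by side, and a count for each entry and library. The commonest count above 0 was 4 in every library, so the counts were taken as estimates and no counting error is given. All 9 entries of erythroid markers were detected, with HBA1 and HBA2 at 76.2 to 86.7 FPKM and GATA1 at 75.9 to 79.1 FPKM, and the cells thus carried the erythroid markers of their label. GP9, PF4 and PPBP of 7 megakaryocyte markers and MPO and ELANE of 6 granulocyte and monocyte markers were listed at 0 in all 4 libraries. The 7 megakaryocyte markers summed to 1.44 to 1.68 FPKM with DMSO and 1.79 to 1.86 with SF1-8, and the 6 granulocyte and monocyte markers, most of it LYZ, to 4.56 to 6.01 and 4.51 to 4.81 FPKM. The 6 lymphocyte markers summed to 5.59 to 6.32 FPKM with DMSO and 5.02 to 5.10 with SF1-8, most of it CD3D. Markers of stromal cells moved with the groups. Their 7 genes summed to 9.93 and 4.72 FPKM in the DMSO libraries and to 2.46 and 0.594 FPKM in the SF1-8 libraries. At an unadjusted p under 0.05 by edgeR, 5 of the 7 were lower with SF1-8, where 4.33% of all entries tested differed. At an adjusted p under 0.05, 0 of the 7 passed by edgeR and by limma. DESeq2 called 2 of them, where it called 164 of all 26167 entries. Without DMSO 1 the fold changes of the 5 were smaller in size. COL3A1, for example, had -1.89 instead of -2.73 on the log2 scale. THY1 went the other way, with a log2 fold change of 0.15 (SE 0.79). The part of the stromal markers in the results below was not tested. These are bulk libraries, in which fewer cells of a kind and less RNA per cell cannot be told apart. U2AF1 itself stood at 11.4 to 12.0 FPKM, which checks no label because every library carries the mutant.

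In these cells the 8 genes fell into very different levels. RHAG stood far above the rest, at rank 109 by mean FPKM among the 26167 entries tested, the top 0.417%. ANK1 and GYPC lay in the top 5.04% and 7.65%, and EPB41, SPTB and GYPB in the top 12.7%, 15.8% and 23.9%. EPB42 and SLC4A1 were near the bottom, at ranks 21969 and 24030. Most neighbours in this order kept it in all 4 libraries. The exceptions were EPB41, which lay below SPTB in DMSO 2, and EPB42, which lay below SLC4A1 in DMSO 1. EPB41 and SPTB thus did not differ beyond their spread, and neither did EPB42 and SLC4A1. The range of EPB41 also reached into that of GYPC through SF1-8 2, though GYPC lay above EPB41 within each library.

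**Figure D1:**
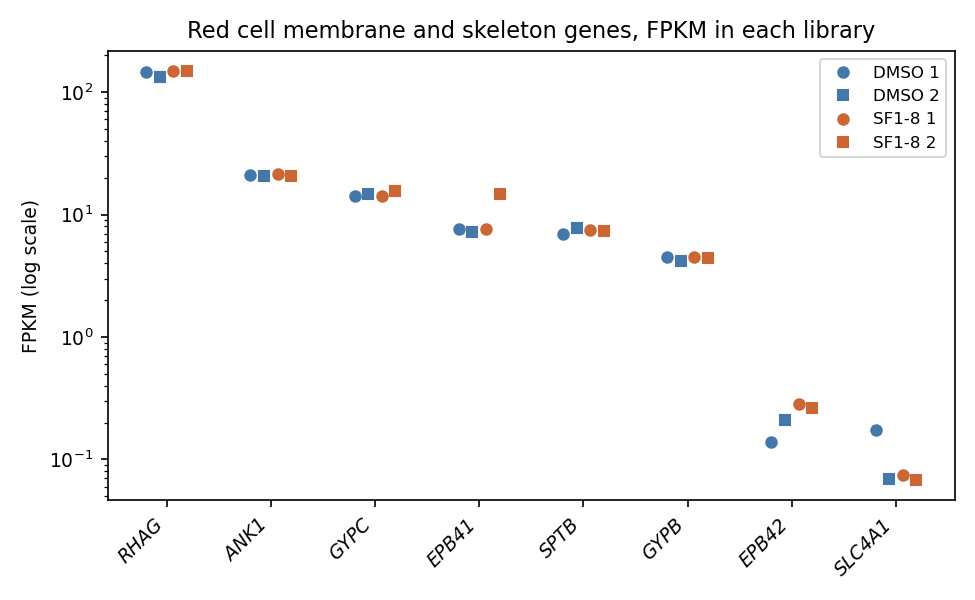
FPKM (log axis) of the 8 genes in each library, ordered by mean level; blue marks are the DMSO libraries, orange marks the SF1-8 libraries, with circles for replicate 1 and squares for replicate 2, and there are no error bars because each mark is 1 library. RHAG sits near 144.2 FPKM on average and SLC4A1 near 0.0965, and EPB41 in SF1-8 2 and SLC4A1 in DMSO 1 are the marks farthest from the other 3 of their gene.

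None of the 8 genes passed the test between SF1-8 and DMSO. For RHAG, ANK1, GYPC, SPTB and GYPB, the 95% confidence interval of the fold lay between 0.855 and 1.25 times the DMSO level. For EPB41, EPB42 and SLC4A1 the interval was wider and reached 2.57, 3.01 and 1.69 times at its upper end. By edgeR's quasi-likelihood test, 0 of the 8 genes differed at an unadjusted p under 0.05, where 4.33% of all 26167 entries did, and 0 of 8 at an adjusted p under 0.05, where 0.042% did. DESeq2 called 1 of the 8, EPB41, at an unadjusted p under 0.05, with 4.43% of all entries called, and none at an adjusted p. The fold change was above 0 on the log2 scale for 7 genes and below it for SLC4A1 (6 and 2 without TMM scaling, where SPTB turned below 0), with a median of 0.06 against -0.01 over all entries tested. It was smaller than 0.2 in size for 5 of the 8 genes and for 48.0% of all entries. In FPKM the 2 SF1-8 values exceeded the 2 DMSO values for RHAG, EPB41 and EPB42, thus 3 of 8, where 14.2% of all entries did so. On counts scaled by TMM, edgeR's normalization for depth and composition, ANK1 and GYPB joined them, thus 5 of 8 against 17.3% of all entries.

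**Figure D2:**
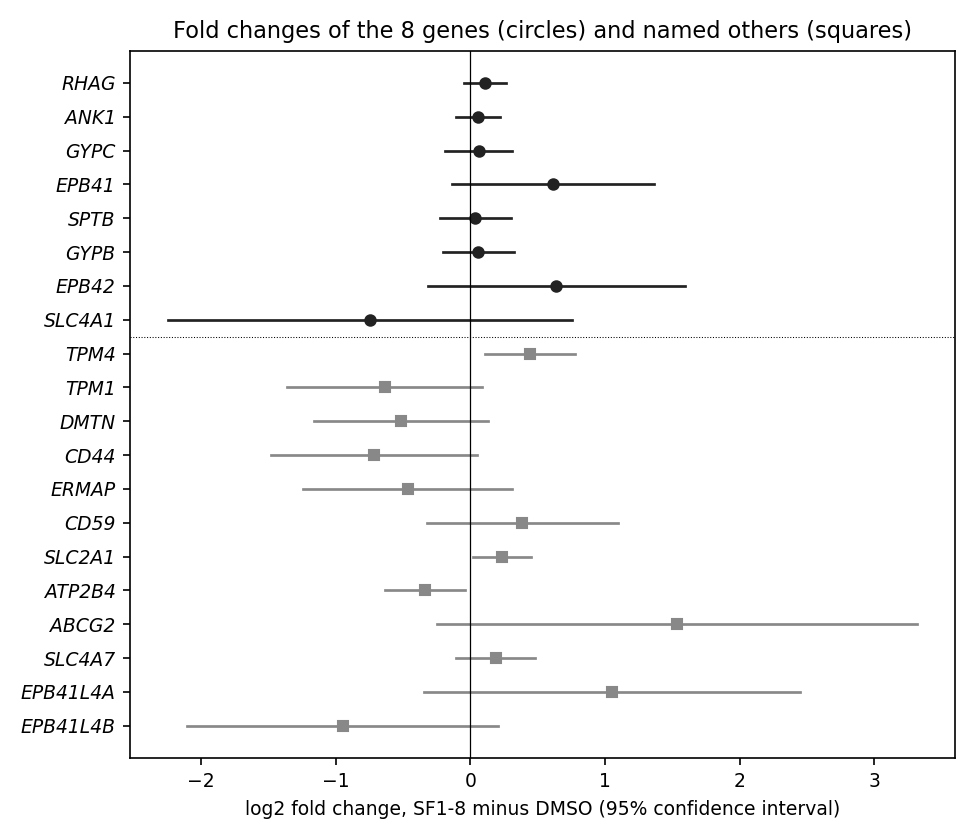
Log2 fold change (SF1-8 minus DMSO, 2 libraries each) from edgeR with 95% confidence intervals as bars; circles are the 8 genes, squares below the dotted line are the related genes named in the text. All 8 intervals cover 0, and those of EPB41, EPB42 and SLC4A1 are the widest of the 8.

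Of the transport proteins, RHAG, which forms an ammonia channel and is needed for the Rh antigens to reach the surface, was the most abundant. It lies at chr6:49605175-49636839 on the minus strand (GRCh38). The DMSO libraries had 146.9 FPKM (replicate 1) and 133.7 FPKM (replicate 2), and the SF1-8 libraries 147.8 and 148.5 FPKM in the same order. DMSO 2 was the low library and the other 3 lay together, so the groups did not overlap but were set apart by less than 1 FPKM on the side of DMSO 1. The means were 140.3 ± 9.36 FPKM with DMSO and 148.1 ± 0.514 with SF1-8 (SD, n = 2 each). The log2 fold change was 0.11 (SE 0.06, 95% confidence interval -0.05 to 0.26; edgeR quasi-likelihood, Benjamini-Hochberg adjusted p = 0.97). RHAG thus was estimated to within a range from 0.969 to 1.20 times its DMSO level, the narrowest of the 8 genes.

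RHAG acts together with the Rh proteins of RHD and RHCE, which carry the D and the C and E antigens. Its FPKM was 33.7 to 51.4 times that of RHD and 60.7 to 77.0 times that of RHCE in the same library. RHD had a log2 fold change of 0.09 (SE 0.21) and RHCE of -0.03 (SE 0.18), and neither passed the test. RHD stood at -0.16 without DMSO 1, and RHCE at 0.12 without SF1-8 1. RHD and RHCE are near-identical copies, so reads may have been split between them.

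SLC4A1, the band 3 exchanger and the most abundant protein of the mature red cell membrane, was barely detected. The gene lies at chr17:44248390-44268134 on the minus strand. With DMSO it stood at 0.175 FPKM (replicate 1) and 0.0691 FPKM (replicate 2), and with SF1-8 at 0.0742 and 0.0680 FPKM, from deposited counts of 54, 29, 32 and 29. DMSO 1 alone was high and DMSO 2 lay between the SF1-8 libraries, so the groups overlapped. The means were 0.122 ± 0.0747 FPKM with DMSO and 0.0711 ± 0.00438 with SF1-8 (SD, n = 2 each). The log2 fold change was -0.75 (SE 0.59, interval -2.25 to 0.76, edgeR adjusted p = 0.97), and without DMSO 1 it was 0.04, so the negative value rested on that library. SLC4A2, the more widely expressed anion exchanger of the family, was present at 29.6 to 32.3 FPKM. SLC4A2 stood 185 to 452 times above SLC4A1, and its log2 fold change was -0.04 (SE 0.07), or 0.004 without SF1-8 2.

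Of the linkers, ANK1, which ties spectrin to band 3 and the Rh complex, was the second most abundant gene. Its main entry lies at chr8:41653220-41798313 on the minus strand and held 92.7% of the counts of the 3 entries that name ANK1. The DMSO libraries had 21.1 FPKM (replicate 1) and 20.5 FPKM (replicate 2), and the SF1-8 libraries 21.6 and 20.8 FPKM in the same order. The 4 libraries lay within about 1 FPKM of each other and the groups overlapped. The means were 20.8 ± 0.441 FPKM with DMSO and 21.2 ± 0.606 with SF1-8 (SD, n = 2 each), and the log2 fold change was 0.06 (SE 0.07, interval -0.11 to 0.22, edgeR adjusted p = 0.97). The ankyrin of other cell types, ANK3, was present as well. ANK1 stood 6.92 to 7.82 times above ANK3 in the same library.

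EPB42, the protein that steadies ankyrin on band 3, was found only at low counts. Its entry on chr15:43106225-43221018, minus strand, also names AC068724. The DMSO libraries had counts of 30 and 60, or 0.140 and 0.209 FPKM. The SF1-8 libraries had counts of 84 and 76, or 0.281 and 0.264 FPKM. The groups did not overlap, with SF1-8 above DMSO and DMSO 1 the lowest. The means were 0.174 ± 0.0495 FPKM with DMSO and 0.273 ± 0.0123 with SF1-8 (SD, n = 2 each). The log2 fold change of 0.64 came with a wide interval, from -0.31 to 1.59 (SE 0.37, edgeR adjusted p = 0.97). It was 0.38 without DMSO 1 and 0.98 without DMSO 2. TGM2, a transglutaminase to which protein 4.2 is related but which is active as an enzyme, stood 32.5 to 60.3 times above EPB42, with a log2 fold change of 0.08 (SE 0.09).

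**Figure D3:**
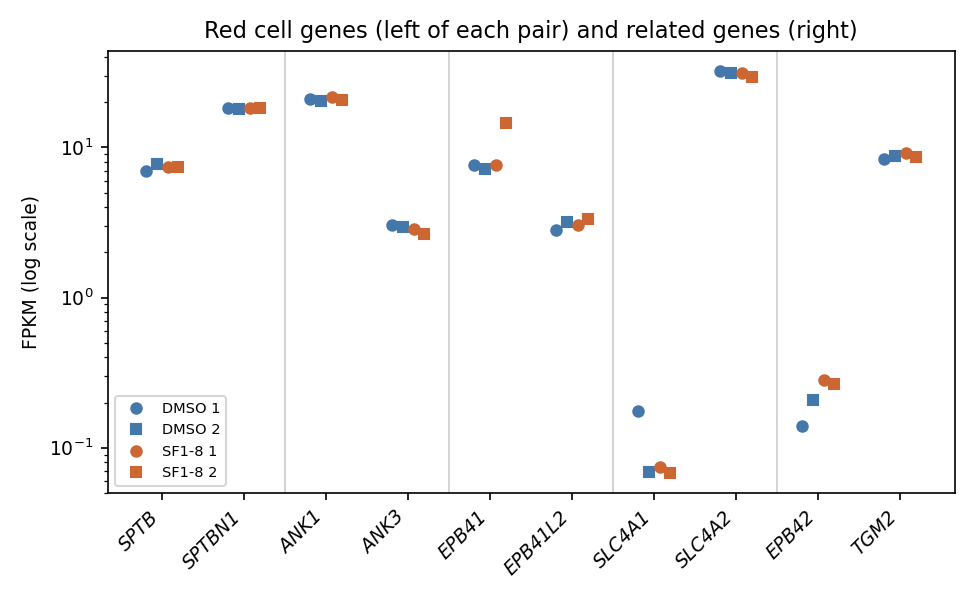
FPKM (log axis) in each library of red cell genes, on the left of each pair, and a related gene on the right; blue marks are DMSO, orange SF1-8, circles replicate 1 and squares replicate 2. SLC4A1 and EPB42 lie far below SLC4A2 and TGM2, ANK1 and EPB41 above ANK3 and EPB41L2, and SPTB below SPTBN1.

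Of the skeleton genes, SPTB encodes the erythroid beta-spectrin. Its entry at chr14:64746283-64879907 on the minus strand also names the microRNA gene MIR7855. With DMSO it stood at 6.91 FPKM (replicate 1) and 7.78 FPKM (replicate 2), and with SF1-8 at 7.44 and 7.37 FPKM. The DMSO libraries lay on either side of the SF1-8 libraries. The means were 7.34 ± 0.614 FPKM with DMSO and 7.40 ± 0.0512 with SF1-8 (SD, n = 2 each), and the log2 fold change was 0.04 (SE 0.10, interval -0.23 to 0.30, edgeR adjusted p = 0.99). Its sign turned when TMM scaling was left out or when DMSO 1 was left out, with values of -0.01 and -0.08. The beta-spectrin of other cells, SPTBN1, stood 2.32 to 2.65 times above SPTB.

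EPB41, which encodes protein 4.1, was high in a single library. Its entry covers chr1:28887091-29120046 on the plus strand. The DMSO libraries had 7.61 FPKM (replicate 1) and 7.18 FPKM (replicate 2), and the SF1-8 libraries 7.61 and 14.6 FPKM in the same order, from counts of 8964, 11846, 12979 and 24023. SF1-8 2 was high alone, and SF1-8 1 lay level with DMSO 1, so the groups were apart by less than 0.01 FPKM. The means were 7.40 ± 0.298 FPKM with DMSO and 11.1 ± 4.94 with SF1-8 (SD, n = 2 each). The log2 fold change was 0.61 (SE 0.29, interval -0.14 to 1.36, edgeR adjusted p = 0.97), a fold of 1.53. The value was 0.08 with SF1-8 2 left out and stood at 1.01 with SF1-8 1 left out (edgeR adjusted p = 0.058), so the difference rested on SF1-8 2. DESeq2 on the same counts gave an unadjusted p of 0.031 for EPB41 with an adjusted p of 1.0, and edgeR without the filter on low counts gave an unadjusted p of 0.041 with an adjusted p of 0.93, in a fit that called 3.91% of its 37155 entries unadjusted.

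**Figure D4:**
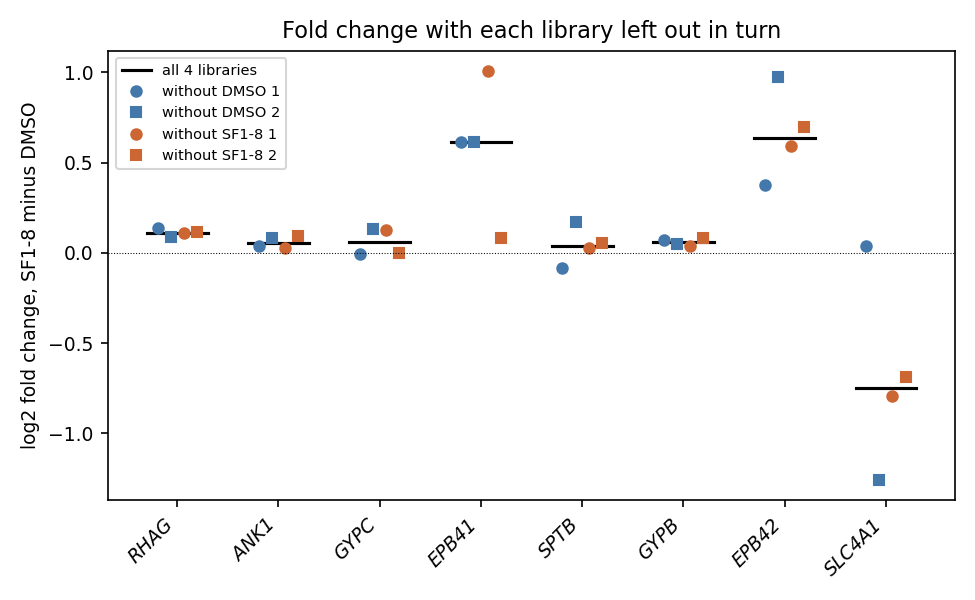
Log2 fold change (SF1-8 minus DMSO, edgeR) of the 8 genes with all 4 libraries (black bar) and with each library left out in turn (marks; colour and shape name the library left out). EPB41 runs from 0.08 without SF1-8 2 to 1.01 without SF1-8 1, and SLC4A1 from -1.26 without DMSO 2 to 0.04 without DMSO 1.

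The library SF1-8 2 was compared with the other 3 for EPB41 and for other entries, as a description added after the value of EPB41 was seen. Over the 9440 entries above 10 CPM (counts scaled to library size), SF1-8 2 stood at least 1.8 times above each of the other 3 libraries in 29, a number that was 23 for DMSO 1, 15 for DMSO 2 and 19 for SF1-8 1. EPB41 was 1.90 times its next highest library, and 26 entries, or 0.275%, reached that ratio in SF1-8 2. A second entry of EPB41, on the opposite strand inside the gene at chr1:28926197-28950441, was not highest in SF1-8 2, with 1.08 and 1.51 FPKM with DMSO and 0.921 and 1.08 FPKM with SF1-8. Within 400 kb on either side, 29 entries that do not name EPB41 were tested, and the ratio of SF1-8 2 to the mean of the other libraries had a median of 1.01 and ran from 0.312 to 2.28. EPB41 had a ratio of 1.96, and 1 entry, TMEM200B at 0.0440 to 0.152 FPKM, lay above it. Among entries with a mean FPKM of at least 1, the ratio ran from 0.529 to 1.66.

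**Figure D5:**
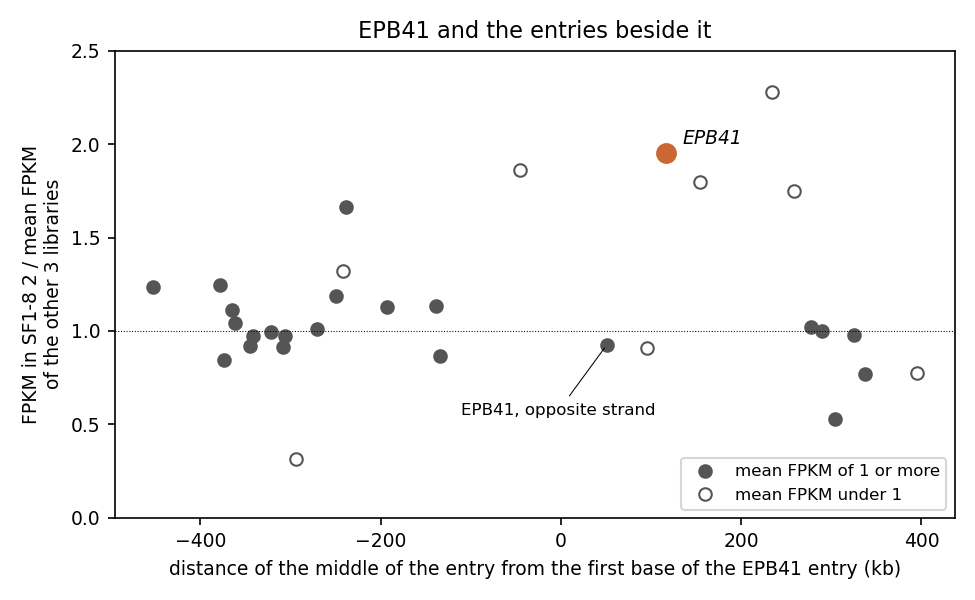
Ratio of FPKM in SF1-8 2 to the mean FPKM of the other 3 libraries for EPB41 (orange) and the tested entries within 400 kb, against the distance of each entry's middle from the start of EPB41 in kb; filled marks have a mean FPKM of at least 1, open marks less. EPB41 lies at 1.96, and the filled marks of its neighbours lie between 0.529 and 1.66.

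EPB41 is known for extensive alternative splicing, by which the spectrin-actin binding stretch of protein 4.1 is included late in erythroid maturation. GENCODE 29 lists 41 transcripts for EPB41, of which 20 have a complete coding sequence, for proteins of 542 to 864 amino acids in 18 different lengths. No other of the 8 genes had more than 17 transcripts, a number reached by GYPB. SPTB had 9 and ANK1 14. The values here are sums per entry and do not separate transcripts, which were not analysed here. The related gene EPB41L2 was present at 2.83 to 3.34 FPKM with a log2 fold change of 0.10 (SE 0.12), or -0.02 without DMSO 1.

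Of the glycophorins, GYPC, which carries the Gerbich antigens and holds protein 4.1 to the membrane, was the more abundant. It lies at chr2:126656133-126696667 on the plus strand. With DMSO it stood at 14.2 FPKM (replicate 1) and 14.7 FPKM (replicate 2), and with SF1-8 at 14.1 and 15.5 FPKM. The SF1-8 libraries held both the lowest and the highest value, so the groups overlapped. The means were 14.5 ± 0.385 FPKM with DMSO and 14.8 ± 1.01 with SF1-8 (SD, n = 2 each). The log2 fold change was 0.06 (SE 0.10, interval -0.19 to 0.31, edgeR adjusted p = 0.97).

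The entry of GYPB lies at chr4:143870864-144019345 on the minus strand and names GYPE and AC093890 beside GYPB. The DMSO libraries had 4.53 FPKM (replicate 1) and 4.22 FPKM (replicate 2), and the SF1-8 libraries 4.51 and 4.42 FPKM in the same order. The SF1-8 libraries lay between the DMSO libraries. The means were 4.37 ± 0.225 FPKM with DMSO and 4.46 ± 0.0649 with SF1-8 (SD, n = 2 each), and the log2 fold change was 0.06 (SE 0.10, interval -0.21 to 0.32, edgeR adjusted p = 0.97). A further entry named GYPB held 0.903% of the counts of the symbol. GYPC stood 3.13 to 3.52 times above GYPB in every library.

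Of the other genes of the membrane and skeleton, in 4 lists, 3 of 71 tested entries passed an unadjusted p under 0.05 by edgeR, or 4.23%, close to the 4.33% of all entries, and 0 passed at an adjusted p. Of 15 skeleton partners, 6 had a fold change above and 9 below 0 on the log2 scale, with a median of -0.02, and 1 passed an unadjusted p under 0.05 by edgeR. Without TMM scaling 4 were above and 11 below 0 and 0 passed, DESeq2 called 2 and limma 0. With a library left out, from 4 (without DMSO 1) to 10 (without SF1-8 2) were above 0. The gene called by edgeR was TPM4, a tropomyosin, with 6.04 and 4.70 FPKM with DMSO and 6.61 and 7.70 with SF1-8 (log2 fold change 0.44, SE 0.13, unadjusted p = 0.018 by edgeR, 0.056 without DMSO 2 and 0.067 without SF1-8 2). The next smallest p-values were those of TPM1, another tropomyosin, with a log2 fold change of -0.64 (SE 0.28, unadjusted p = 0.074 by edgeR), and of DMTN, the actin-bundling protein dematin, with -0.52 (SE 0.25, unadjusted p = 0.097 by edgeR). The cytoskeletal actins ACTB and ACTG1 were the highest of this list, at 252 to 341 FPKM and 167 to 182 FPKM. ACTB was lowest in SF1-8 2, and its log2 fold change of -0.16 (SE 0.15) was 0.05 without that library.

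Of 20 paralogs of the 8 genes, 17 were tested, 7 above and 10 below 0 with a median of -0.01, and 0 passed an unadjusted p under 0.05 by edgeR, DESeq2 or limma. The split was 12 above and 5 below without DMSO 2 and 12 above and 6 below without SF1-8 2, so it rested on these libraries. Those with the smallest p-values were EPB41L4B at -0.95 (SE 0.45) and EPB41L4A at 1.05 (SE 0.55) on the log2 scale, both at or under 0.123 FPKM, and SLC4A7, a sodium bicarbonate cotransporter, at 0.19 (SE 0.12). RHCG, a kidney relative of RHAG, was listed at 0 in all libraries.

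Of 22 blood group and surface proteins, 19 entries were tested, 11 above and 8 below 0 with a median of 0.06, and 0 passed an unadjusted p under 0.05 by edgeR, DESeq2 or limma. With a library left out, from 9 (without DMSO 1) to 14 (without SF1-8 1) were above 0. CD44, the carrier of the Indian antigens, had the smallest p, with a log2 fold change of -0.72 (SE 0.30) at 0.0994 to 0.235 FPKM. ERMAP, the carrier of the Scianna antigens, stood at 7.48 and 7.18 FPKM with DMSO and at 6.83 and 3.56 with SF1-8. Here too SF1-8 2 stood alone, and the log2 fold change of ERMAP of -0.47 (SE 0.31) was -0.06 without that library. CD59, an inhibitor of complement, was low in DMSO 2 alone, at 4.58 FPKM against 8.47 to 8.89 in the others. BSG, the basigin that carries the Ok antigens, was the highest of this list at 47.7 to 78.0 FPKM, and XK, which carries the Kx antigen, followed with 9.39 to 10.0 FPKM. The entry of GYPB counts in this list as well, through GYPE.

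Of 21 channels and transporters, 20 were tested, 13 above and 7 below 0 with a median of 0.06. At an unadjusted p under 0.05, edgeR called 1 higher and 1 lower, where it called 4.33% of all entries. DESeq2 called 1 in all, against 4.43% of all entries, and limma 2, against 5.71%, and none passed at an adjusted p. With a library left out, from 10 (without DMSO 1) to 15 (without DMSO 2) were above 0. SLC2A1, the glucose transporter GLUT1 that is bound to the skeleton through dematin and adducin, stood at 10.3 and 10.7 FPKM with DMSO and at 11.8 and 12.4 with SF1-8 (log2 fold change 0.23, SE 0.08, unadjusted p = 0.038 by edgeR). ATP2B4, a plasma membrane calcium pump, stood at 7.86 and 8.22 FPKM with DMSO and at 6.78 and 5.69 with SF1-8 (log2 fold change -0.34, SE 0.12, unadjusted p = 0.032 by edgeR). The groups did not overlap for either gene, with SF1-8 the higher for SLC2A1 and the lower for ATP2B4. Over all entries, 14.2% had both SF1-8 libraries above both DMSO libraries in FPKM. The share with both below, which would stand beside ATP2B4, was not counted. SLC2A1 had an unadjusted p of 0.061 with DESeq2 and of 0.071 by edgeR without TMM scaling. Its log2 fold change ran from 0.17 to 0.31 when each library was left out in turn, and that of ATP2B4 from -0.47 to -0.21. ABCG2, the transporter that carries the Junior antigen, came next with a log2 fold change of 1.54 (SE 0.70) at 0.0166 to 0.0868 FPKM. The lactate carrier SLC16A1 was among the highest of the list, at 48.4 to 51.9 FPKM.

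The erythroid markers gave the setting of these values. All 9 entries had a log2 fold change below 0, from -0.15 to -0.005, also with DESeq2, limma, no TMM scaling or DMSO 1 left out. This rested on the other libraries, since 4 of the 9 stood above 0 without DMSO 2, 3 without SF1-8 2 and 1 without SF1-8 1. At an unadjusted p under 0.05, 0 of them passed by edgeR and DESeq2 and 1 by limma, which called 5.71% of all entries. Their summed FPKM was 285 and 282 with DMSO and 265 and 266 with SF1-8. The entry at -0.15 names 9 genes, HBE1, HBG1 and HBG2 among them, and held 84727 to 104473 counts at 27.5 to 33.3 FPKM. The entries of HBZ and EPOR name further genes as well. The FPKM of such a merged entry is not that of any single gene, so this sum is not a level to set against the next. The summed FPKM of the 8 membrane and skeleton genes was 202 and 188 with DMSO and 203 and 212 with SF1-8, of which RHAG made up the greater share.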

How the data were processed

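RNA was sequenced from 2 DMSO and 2 SF1-8 libraries of K562-U2AF1S34F cells, prepared from rRNA-depleted total RNA per the labels. The submitters' processing notes name cutadapt, FastQC, Bowtie2, HISAT2, StringTie and build hg38, without versions or order. The authors deposited FPKM values, scaled for length and depth, in which 0.0001 stands for 0 and was set to 0 here. They also deposited whole-number estimated counts, taken as such because the commonest value above 0 was 4, whose counting error is not known. Library totals ranged from 45331271 to 67311734. Of 64873 entries, 2095 name no gene, held 0.372% of all counts and were left out.

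Groups and replicate numbers were taken from the sample labels. Counts were scaled by TMM (factors 0.973 to 1.05), filtered by filterByExpr and tested on all 4 libraries by edgeR's quasi-likelihood test (edgeR 4.0.16, limma 3.58.1, DESeq2 1.42.0, R 4.3.3), with Benjamini-Hochberg adjustment over 26167 entries. Intervals are 95% confidence intervals from the same fit. The sources used here name no test for these data. An exact permutation test of 2 against 2 libraries cannot give a two-sided p under 0.333 and was not used. The steps were tested on simulated counts with known changes. Those changes were larger than any of the membrane and skeleton genes showed, so changes of that smaller size were not covered. No 2 libraries were duplicates, with a chi-square per degree of freedom of 12.8 to 21.4 between pairs of libraries, computed on the counts divided by 4.

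Named genes were the 8 genes, the 3 with the smallest p and the 2 with the highest mean FPKM of each of 4 lists (skeleton partners, paralogs, blood group and surface proteins, channels and transporters), GYPE, U2AF1 and the markers needed to check the cell type. RHD, RHCE, ANK3, EPB41L2, TGM2, RHCG and the neighbours of EPB41 were added after their values were seen. The genes and lists were chosen with earlier results of these data known. Sequences come from RefSeq (GRCh38.p14) and GENCODE 29. No promoter of ANK1 or SLC4A1 was searched, so the motif counts leave out both genes, and they are given without a sequence. The alternatives were DESeq2, no filter, total counts without TMM, counts divided by 4, a replicate block, limma on log2(FPKM + 1) and log2(FPKM + 0.1), summing all entries of a symbol and leaving out each library. Transcript values were not analysed here. The values of some genes that the list counts include are not reported here.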

Additional observations from a re-analysis of the deposited data

How the results depend on the processing

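At an unadjusted p under 0.05, 1132 entries differed by edgeR's quasi-likelihood test. The count was 1754 with limma on log2(FPKM + 1) without a filter and ran from 1021 to 2267 (without DMSO 2) when each library was left out. At an adjusted p under 0.05 the count was 11, and 164 with DESeq2, 31 without a filter, 0 to 30 when a library was left out (0 without DMSO 1) and 0 with each limma setting, where 1493, 1499 and 1754 entries passed unadjusted. Of the 8 genes, DESeq2 called 1 and edgeR without a filter called 1 at an unadjusted p, both EPB41, and leaving out a library gave 0 to 1. The replicate numbers do not pair the samples by the labels, and the deviations of same-numbered libraries had a correlation of -0.0649 over 9440 entries. With a replicate block the adjusted count was 0 and the unadjusted count 971, and 0 of the 8 genes passed. Of 103 values of the 8 genes under the alternatives, 99 kept their direction and 4 changed sign. This tally counts signs and not sizes. EPB41, at 0.08 without SF1-8 2 and 1.01 without SF1-8 1, is among the values that kept their direction. SPTB was -0.0063 with total counts only. With each library left out in turn, GYPC ran from -0.0054 to 0.13, SPTB from -0.083 to 0.17 and SLC4A1 from -1.26 to 0.036. For the other changes of count the cause was not tested. Where a library is left out, the lone library of a group is assumed to vary like the other group. Of 215 values of the 18 other genes given with a fold change and followed under the alternatives, 209 kept their direction. The remaining 6 changed sign with a library left out. Sizes are again not counted, and ERMAP kept its direction at -1.02 without SF1-8 1 and -0.06 without SF1-8 2. With each library left out in turn, ACTB ran from -0.40 to 0.051 (without SF1-8 2), SLC4A2 from -0.078 to 0.0041 (without SF1-8 2), RHD from -0.16 (without DMSO 1) to 0.39, EPB41L2 from -0.021 (without DMSO 1) to 0.24, and RHCE from -0.18 to 0.12 (without SF1-8 1), with 0.0051 without DMSO 2. SLC4A1 had no value with counts divided by 4, since it did not pass the filter there. With 2 libraries a group, the intervals of all 8 genes covered 0, so none told a rise from a fall. Those of EPB41, EPB42 and SLC4A1 were the widest.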
